A study of Homo sapiens with 14 samples.

Results

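The 45 genes described here belong to autophagy, to the lysosome and to signalling by mTORC1, the growth-regulating kinase complex that sits on the lysosome. They were taken from a list of names and comprised 23 autophagy core genes, 11 genes of lysosomal proteins and 11 genes of mTORC1, the Rag GTPases and TFEB. A probe set naming the gene alone was found for 45 of 45, and each gene was read from its probe set with the highest mean log2 signal over the 14 arrays. Of these, 44 passed the filter on low signals, and RRAGB did not. They were tested among 7720 genes in all.

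The samples were U2OS cells, a human osteosarcoma line, that stably expressed ER-E2F1, the cell cycle transcription factor E2F1 joined to an estrogen receptor domain that 4-hydroxytamoxifen (OHT) activates. All groups carried ER-E2F1 and a lentivirus, and all were kept in serum-free medium, for 24 h before treatment and during the 6 h of treatment. There were 4 arrays of cells with a scrambled virus without OHT and 4 with 20 nM OHT. The virus shFOXO33 had 1 array without and 2 with OHT, and the virus shFOXO707 likewise had 1 and 2, and both viruses were directed at the transcription factors FOXO1 and FOXO3 together. No group received OHT without carrying ER-E2F1, so activation of the fusion protein and other actions of OHT cannot be told apart. Neither the labels nor the design text tell if replicate arrays came from separate cultures or if the line was 1 clone. A p-value here therefore reflects the variation among these arrays alone, which may be technical. In bulk RNA, fewer cells with a transcript and less of it per cell cannot be told apart.

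Autophagy delivers cytoplasm to the lysosome inside a double membrane. The ULK kinase complex starts it, a lipid kinase complex around PIK3C3 marks the site, and a pair of conjugation systems couples LC3 and GABARAP proteins to the growing membrane, to which cargo receptors such as SQSTM1 bind. In fed cells mTORC1, recruited to the lysosome by heterodimers of Rag GTPases and switched on by RHEB, holds back the ULK complex and the factors TFEB and TFE3, which activate lysosomal and autophagy genes through the E-box motif. FOXO factors are known activators of autophagy genes in muscle and other tissues.

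The median signal of an array lay between 137 and 143 on the 6 arrays without OHT and between 115 and 120 on the 8 arrays with OHT. With OHT, FOXO3 stood at 17.1% of its scrambled level in shFOXO33 cells and at 45.1% in shFOXO707 cells, and the shares for FOXO1 were 32.4% and 47.1%. Without OHT the single arrays held 30.7% and 60.9% of the FOXO3 signal and 47.7% and 37.9% of the FOXO1 signal. The FOXO3 signals were 424, 510, 448 and 415 in scrambled cells without OHT, 138 and 274 with shFOXO33 and shFOXO707, 1785, 1736, 1808 and 1844 in scrambled cells with OHT, then 290 and 325 with shFOXO33 and 853 and 766 with shFOXO707. The FOXO1 signals in the same order were 92.4, 107, 101 and 112, then 49.2 and 39.1, then 533, 515, 502 and 456, then 140 and 185, then 218 and 254. Both targeted genes were thus lower in every hairpin array than in every scrambled array of the same treatment. Of the markers examined, 6 of 8 osteoblast and bone markers, 3 of 3 mesenchymal, 3 of 5 epithelial, 2 of 4 neural and 0 of 6 blood markers passed the filter. RUNX2, the osteoblast transcription factor, was below it on average with signals between 16.5 and 46.6.

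OHT changed these genes about as often as it changed genes in general. In scrambled cells 7 of the 44 rose and 22 fell at an adjusted p under 0.05 (limma, Benjamini-Hochberg over all genes tested), which is 65.9%, against 70.5% of all genes, of which 24% rose and 46.4% fell. The median log2 change was -0.31 over the members and -0.23 over all genes. The arrays with and without OHT did not overlap for 35 of the 44, against 75.5% of all genes, and 11 changed at least 2-fold, against 22.8%. The autophagy core had 3 rises and 11 falls among 23, the lysosomal proteins 1 and 5 among 11, and the mTORC1, Rag and TFEB genes 3 and 6 among 10. The ratio of 3' to 5' probe signal for ACTB, which rises as RNA degrades, lay between 1.4999 and 1.5878 on the scrambled arrays without OHT and between 1.598 and 1.7413 on those with OHT. The groups did not overlap, and the part of this ratio in the OHT results was not tested. Centring each array on its median moved the median change of all genes to 0.01, and the members then had 12 rises and 16 falls. The share of all genes called after centring was not counted.

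**Figure D1:**
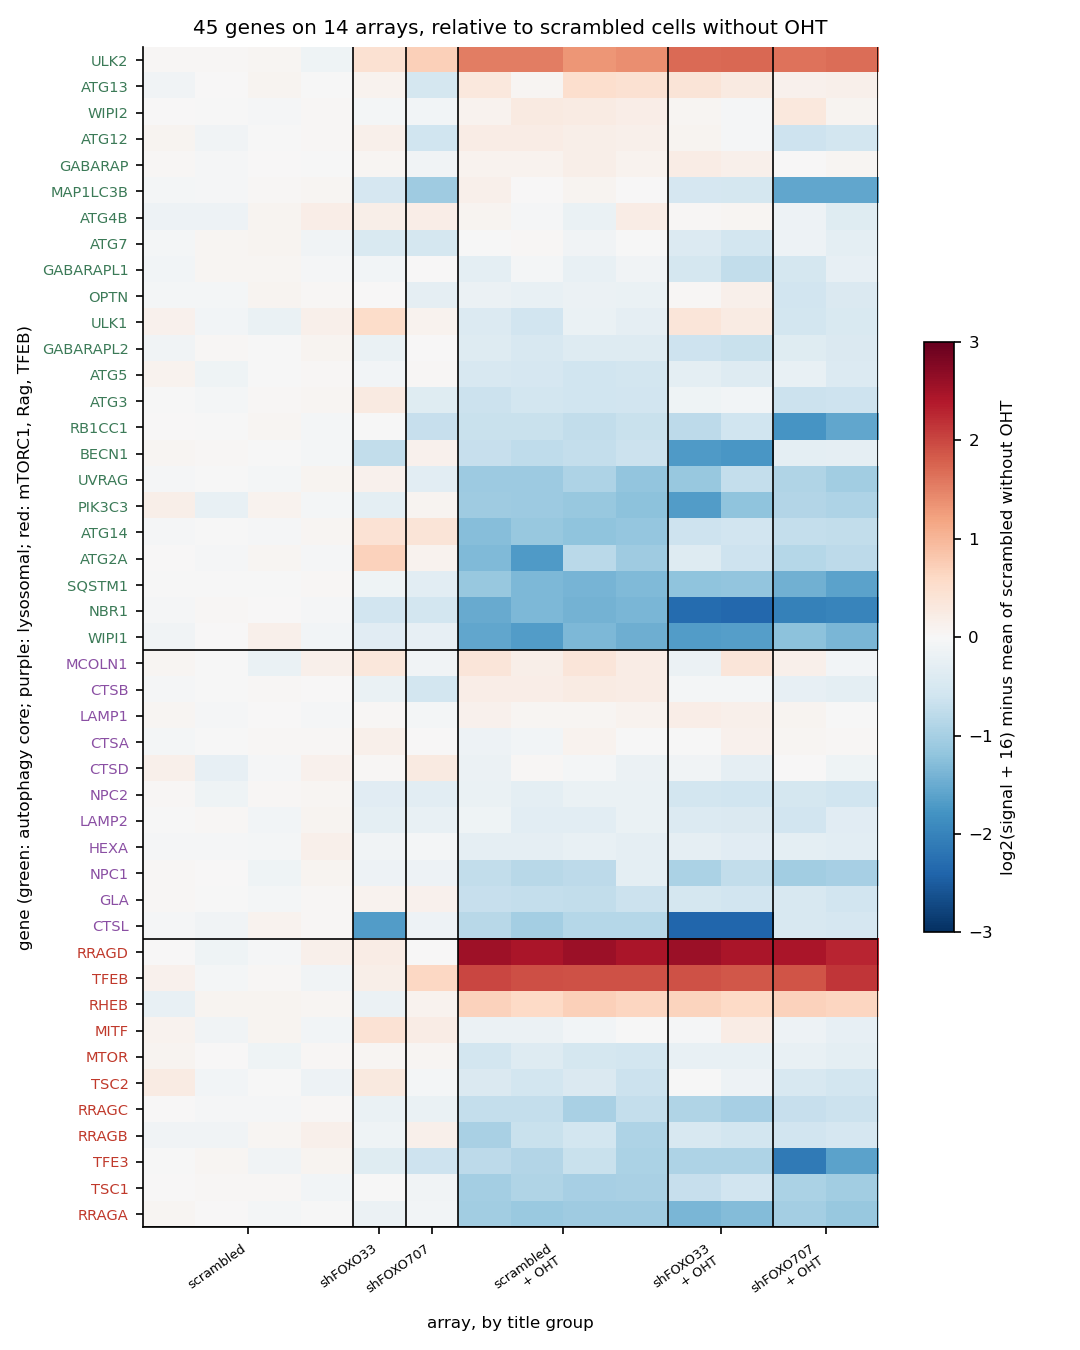
Heat map of 45 genes (rows, with the class of each gene given by the colour of its name) on the 14 arrays (columns, by title group), in log2(signal + 16) minus the mean of the 4 scrambled arrays without OHT. RRAGD, TFEB and ULK2 stand out as red on all 8 arrays with OHT, CTSL is darkest blue on the 3 shFOXO33 arrays and MAP1LC3B on the 3 shFOXO707 arrays.

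The 2 largest changes were those of RRAGD and TFEB, in the nutrient-sensing branch. RRAGD encodes 1 of the 2 Rag GTPases that can partner RRAGA or RRAGB on the lysosome. Its signals were 894, 810, 863 and 979 in scrambled cells without OHT and 5203, 4872, 5338 and 4920 with OHT. Every array with OHT lay far above every array without it, with a mean of 887 ± 70.7 (SD, n = 4) without and 5083 ± 224 (SD, n = 4) with OHT. The rise was 2.50 ± 0.08 (SE) log2, or 5.66-fold (limma adjusted p = 6.23e-12), and the gene's other probe set rose by 2.84 (limma adjusted p = 6.88e-11 among all probe sets). The other Rag genes went down. RRAGA, which pairs with RRAGC or RRAGD, had signals of 2066, 1994, 1898 and 1947 without OHT and of 957, 906, 928 and 937 with OHT. The groups did not overlap, and RRAGA fell by 1.07 ± 0.07 (SE) log2 (limma adjusted p = 1.87e-08). RRAGC, the paralogue of RRAGD, fell by 0.78 ± 0.09 (SE) log2 from 1631 ± 45.3 to 949 ± 82.4 (SD, n = 4 each; limma adjusted p = 2.34e-06). RRAGB, the paralogue of RRAGA, had signals of 64.1 to 80.6 without OHT and of 27.9 to 42.9 with OHT in scrambled cells, below the filter on average. In the fit of all probe sets it fell by 0.79 ± 0.14 (SE) log2 (limma adjusted p = 2.87e-04).

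TFEB, the transcription factor best known for switching on lysosomal genes, had signals of 147, 126, 134 and 121 without OHT and of 580, 552, 543 and 542 with OHT. It rose by 1.95 ± 0.10 (SE) log2, or 3.86-fold, with no overlap (limma adjusted p = 1.37e-09), and its other probe set rose by 1.02 (limma adjusted p = 1.23e-04 among all probe sets). Its relative TFE3 moved the other way, from 1729 ± 101 to 973 ± 86.2 (SD, n = 4 each), a fall of 0.82 ± 0.21 (SE) log2 (limma adjusted p = 0.00316). MITF, the other family member on the list, differed by -0.11 ± 0.10 (SE) log2 and was not called (limma adjusted p = 0.34). RHEB, the small GTPase that activates mTORC1, rose by 0.66 ± 0.07 (SE) log2, from 4471 ± 418 to 7066 ± 267 (SD, n = 4 each; limma adjusted p = 2.11e-06). TSC1 and TSC2, which form the complex that turns RHEB off, both fell, TSC1 by 0.98 ± 0.09 (SE) and TSC2 by 0.52 ± 0.13 (SE) log2. MTOR, the kinase itself, fell by 0.50 ± 0.08 (SE) log2 from 200 ± 13.0 to 137 ± 9.08 (SD, n = 4 each; limma adjusted p = 5.35e-05). The TSC2 fall was not called after centring on the array median (-0.28, limma adjusted p = 0.0778) or after quantile normalization (-0.30, limma adjusted p = 0.0600).

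**Figure D2:**
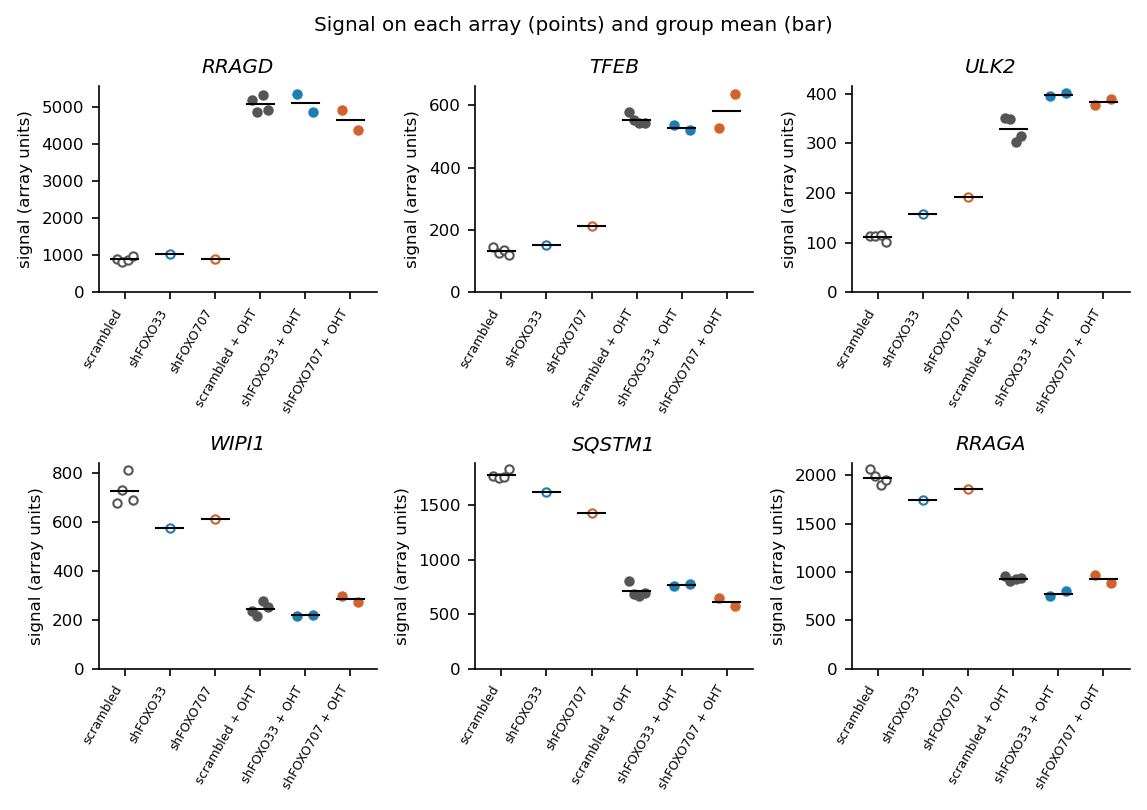
Signal in array units for 6 genes, one panel each, by title group (open points without OHT, filled points with OHT, bars the group mean, single arrays where a group has 1). RRAGD, TFEB and ULK2 are higher on all 8 arrays with OHT than on all 6 without, and WIPI1, SQSTM1 and RRAGA are lower.

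In the autophagy core ULK2, one of the ULK kinases, rose by its brightest probe set. It had signals of 113, 114, 116 and 101 in scrambled cells without OHT and of 350, 349, 303 and 316 with OHT. The rise was 1.45 ± 0.08 (SE) log2, or 2.72-fold (limma adjusted p = 3.17e-09). Of its other probe sets, 1 that was below the filter rose by 1.34 and 1 that was above it differed by -0.20 and was not called, so the rise is not seen by every probe set. ULK1, the paralogue, went from 173 ± 22.5 to 131 ± 16.5 (SD, n = 4 each), a difference of -0.36 ± 0.20 (SE) log2 that was not called (limma adjusted p = 0.12). Of their partners, ATG13 rose by 0.34 ± 0.13 (SE) log2 with arrays that overlapped (limma adjusted p = 0.0301), a call lost without scrambled array 1, 2 or 4 without OHT or 1, 3 or 4 with OHT (adjusted p = 0.0512 to 0.0874). RB1CC1, the scaffold of the complex, fell by 0.68 ± 0.22 (SE) log2 from 2297 ± 81.3 to 1425 ± 35.9 (SD, n = 4 each; limma adjusted p = 0.0122), a call lost after centring on the array median (-0.44, limma adjusted p = 0.0918).

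In the lipid kinase complex PIK3C3, ATG14 and UVRAG fell. PIK3C3, its catalytic subunit, had signals of 621, 467, 592 and 531 without OHT and of 254, 249, 240 and 224 with OHT. It fell by 1.14 ± 0.16 (SE) log2 (limma adjusted p = 2.22e-05). ATG14, the subunit that directs the complex to autophagy, had signals of 492, 502, 492 and 528 without OHT and of 197, 220, 209 and 215 with OHT. It fell by 1.20 ± 0.07 (SE) log2 (limma adjusted p = 1.99e-09), and neither gene's groups overlapped. UVRAG, which takes the place of ATG14 in another form of the complex, had signals of 410, 416, 401 and 442 without OHT and of 187, 187, 211 and 173 with OHT. It fell by 1.08 ± 0.11 (SE) log2 (limma adjusted p = 9.92e-07). BECN1, the core subunit of both forms, went from 1164 ± 45.4 to 708 ± 23.8 (SD, n = 4 each) without overlap, a difference of -0.70 ± 0.31 (SE) log2. It was not called in the fit that pools the hairpins, whose difference for this gene enters the error (limma adjusted p = 0.056), and was called with 6 title groups (limma adjusted p = 1.37e-09).

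WIPI1 and WIPI2, which bind the lipid that PIK3C3 makes, were called in opposite directions. WIPI1 had signals of 675, 731, 812 and 689 without OHT and of 236, 217, 276 and 251 with OHT. It fell by 1.51 ± 0.11 (SE) log2 (limma adjusted p = 3.03e-08), and its other probe set by 1.57. WIPI2 rose by 0.20 ± 0.07 (SE) log2 (limma adjusted p = 0.0204), a call lost without scrambled array 3 without OHT or without scrambled array 2 or 3 with OHT (adjusted p = 0.0519 to 0.0618), after quantile normalization (0.10, adjusted p = 0.216) and with the replicate block (adjusted p = 0.0532). ATG2A, which carries lipid into the growing membrane, had signals of 230, 224, 239 and 223 without OHT and of 82.1, 59.3, 124 and 102 with OHT. The arrays with OHT were more spread but all below those without, and ATG2A fell by 1.22 ± 0.18 (SE) log2 (limma adjusted p = 3.43e-05).

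Of the conjugation genes ATG3 and ATG5 fell. ATG3, the E2-like enzyme that attaches LC3 to lipid, fell by 0.59 ± 0.14 (SE) log2 (limma adjusted p = 0.00202), and ATG5, part of the conjugate that assists it, by 0.53 ± 0.07 (SE) log2 (limma adjusted p = 6.99e-06). ATG12, the partner of ATG5, ATG7, the E1-like enzyme, and ATG4B, the protease that processes LC3, were not called, with differences of 0.20, -0.03 and 0.02. Among the LC3 and GABARAP genes, GABARAPL2 fell by 0.41 ± 0.07 (SE) log2 (limma adjusted p = 2.05e-04), a call lost after centring (-0.17, limma adjusted p = 0.0638). MAP1LC3B, GABARAP and GABARAPL1 were not called, at 0.07, 0.12 and -0.17. After centring on the array median GABARAP lay at 0.36 and ATG12 at 0.44, and both were called higher (limma adjusted p = 5.46e-05 and 0.0358). MAP1LC3B and GABARAPL1 have near-identical copies in the genome, MAP1LC3B2 and GABARAPL3, and their probe sets may read both.

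Of the 3 cargo receptors, SQSTM1 and NBR1 fell. SQSTM1 (p62) had signals of 1772, 1750, 1760 and 1831 without OHT and of 805, 688, 669 and 699 with OHT, a fall of 1.30 ± 0.10 (SE) log2 (limma adjusted p = 3.78e-08). NBR1, which resembles SQSTM1 in its domains, had signals of 1248, 1309, 1295 and 1252 without OHT and of 436, 489, 465 and 485 with OHT. It fell by 1.41 ± 0.09 (SE) log2, or 2.67-fold (limma adjusted p = 6.16e-09), and its other probe set by 1.28. OPTN differed by -0.20 ± 0.13 (SE) log2 and was not called (limma adjusted p = 0.206), but was called lower without probe sets ending in _x_at or _s_at (-0.20, limma adjusted p = 0.0490).

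Among the lysosomal proteins CTSB rose, 5 fell and 0 of 11 were called at 2-fold or more. CTSB, a cysteine protease, rose by 0.22 ± 0.07 (SE) log2, from 3158 ± 69.6 to 3677 ± 54.0 (SD, n = 4 each; limma adjusted p = 0.0178), a call lost after quantile normalization (0.12, limma adjusted p = 0.182). GLA, alpha-galactosidase, fell by 0.70 ± 0.06 (SE) and NPC1, the membrane exporter of cholesterol, by 0.66 ± 0.11 (SE) log2. NPC2, the soluble partner of NPC1, HEXA, a subunit of beta-hexosaminidase, and LAMP2, a major membrane glycoprotein, fell by 0.22, 0.26 and 0.25 on the log2 scale. These 3 calls were lost after centring on the array median, where NPC2 lay at 0.02, HEXA at -0.02 and LAMP2 at -0.01. The other probe sets of LAMP2 gave 0.19 and 0.07, so its direction differs between probe sets. CTSL, a cysteine protease whose signals were 3550, 3415, 3943 and 3740 without OHT and 2061, 1788, 2004 and 2016 with OHT, did not overlap but was not called when the hairpins were pooled (-0.89 ± 0.43 (SE) log2, limma adjusted p = 0.076). With 6 title groups it was called (limma adjusted p = 1.86e-10).

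The promoters of several lysosomal genes are shown because they carry the E-box that TFEB and TFE3 bind. CTSL is shown because it held the only exact match to the FOXO motif GTAAACA among the members searched. Other forms of the FOXO motif were not searched. Sequences are the 250 bases before the start in RefSeq (GRCh38.p14), given for 38 of the 45 members with 50 entries in all. HEXA, LAMP2, UVRAG, RRAGA, RRAGD, RB1CC1 and CTSB had no entry and were not searched. CACGTG in capitals marks the E-box, which reads the same on both strands, in LAMP1 (chr13:113296989-113297238, plus strand), MCOLN1 (chr19:7522374-7522623, plus), CTSA (chr20:45891085-45891334, plus) and CTSD (chr11:1763928-1764177, minus), and GTAAACA in capitals marks the FOXO motif in CTSL (chr9:87725869-87726118, plus).
LAMP1: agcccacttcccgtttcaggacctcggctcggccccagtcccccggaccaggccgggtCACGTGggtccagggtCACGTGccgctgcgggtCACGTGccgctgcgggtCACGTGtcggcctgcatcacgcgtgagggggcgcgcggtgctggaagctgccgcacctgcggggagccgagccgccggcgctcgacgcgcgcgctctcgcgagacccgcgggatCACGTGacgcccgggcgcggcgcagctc
MCOLN1: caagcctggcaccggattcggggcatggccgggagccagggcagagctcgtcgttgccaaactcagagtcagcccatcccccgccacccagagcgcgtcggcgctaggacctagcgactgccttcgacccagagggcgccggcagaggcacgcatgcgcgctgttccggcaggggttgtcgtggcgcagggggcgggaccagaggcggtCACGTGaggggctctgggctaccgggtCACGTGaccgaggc
CTSA: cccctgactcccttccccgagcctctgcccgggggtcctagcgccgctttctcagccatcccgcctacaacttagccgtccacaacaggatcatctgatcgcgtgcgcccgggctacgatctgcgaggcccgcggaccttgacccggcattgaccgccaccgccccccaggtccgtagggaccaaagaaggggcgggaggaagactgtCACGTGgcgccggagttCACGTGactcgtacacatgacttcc
CTSD: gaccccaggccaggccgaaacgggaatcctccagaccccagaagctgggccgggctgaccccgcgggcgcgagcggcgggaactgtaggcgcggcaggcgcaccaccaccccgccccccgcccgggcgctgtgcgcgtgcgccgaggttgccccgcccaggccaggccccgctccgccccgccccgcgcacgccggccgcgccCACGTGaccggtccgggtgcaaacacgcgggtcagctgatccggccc
CTSL: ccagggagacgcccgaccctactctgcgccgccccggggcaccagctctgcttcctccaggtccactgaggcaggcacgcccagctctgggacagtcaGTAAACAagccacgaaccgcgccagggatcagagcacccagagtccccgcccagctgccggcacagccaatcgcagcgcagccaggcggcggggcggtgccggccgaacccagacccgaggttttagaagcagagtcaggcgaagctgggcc

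The LAMP1 window held 5 E-boxes, MCOLN1 and CTSA held 2 each, and CTSD held 1. The motif CACGTG was in 4 of the 9 lysosomal promoter entries (44.4%), in 9 of the 50 member entries (18%) and in 6.34% of 35116 promoters of the same length. The other members with it, among the 38 with an entry, were ATG3, ATG14, RRAGB, RRAGC and TSC2. The longer TFEB consensus, the E-box with GT before it and AC after it, was in MCOLN1 and RRAGB and in 0.308% of all promoters. GTAAACA, searched on both strands, was in CTSL alone among the 38 members with an entry and in 2.98% of all promoters. The E2F motifs TTTCCCGC, TTTGGCGC, TTTCGCGC and TTTGCCGC, searched on both strands, were in ATG2A alone among these 38 and in 2.79% of all promoters. A match is a description of letters in this window.

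Of the 8 tested members with an E-box, ATG3, ATG14, RRAGC and TSC2 were called lower with OHT in scrambled cells and the 4 lysosomal genes were not called, against 70.5% of all genes called. LAMP1, the other major membrane glycoprotein, differed by 0.09 ± 0.05 (SE) log2, with 9241 ± 313 without and 9810 ± 279 (SD, n = 4 each) with OHT (limma adjusted p = 0.132). MCOLN1, the lysosomal cation channel, differed by 0.28 ± 0.13 (SE) log2 with arrays that did not overlap (limma adjusted p = 0.0743). CTSA, a carboxypeptidase that protects other lysosomal enzymes, differed by -0.03 ± 0.07 (SE) and CTSD, an aspartic protease, by -0.09 ± 0.11 (SE) log2. Other settings called some of the lysosomal genes higher. After centring on the array median LAMP1 lay at 0.33 (limma adjusted p = 2.97e-05), MCOLN1 at 0.52 (limma adjusted p = 0.00379) and CTSA at 0.21, all called. With 6 title groups LAMP1 and MCOLN1 were called (limma adjusted p = 0.0361 and 0.0413), as they were after quantile normalization (0.14 and 0.50, limma adjusted p = 0.00307 and 0.00453), and LAMP1 was also called without probe sets ending in _x_at or _s_at (0.29, limma adjusted p = 2.59e-04).

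Further genes of the same pathways were counted in the same fit. Of 32 further autophagy genes 20 were tested, and 0 rose and 14 fell with OHT in scrambled cells, which is 70% called against 70.5% of all genes. The 3 that changed most were PIK3R4, the regulatory subunit of the PIK3C3 complex, with a fall of 1.77, WDFY3, with a fall of 0.91, and STX17, the SNARE that fuses autophagosomes with lysosomes, with a fall of 0.87 on the log2 scale. Of 54 further lysosomal genes 44 were tested, and 7 rose and 18 fell, or 56.8% called. ATP6V0B, a subunit of the proton pump, rose by 1.34, while SGSH, a sulfatase, fell by 1.04 and SLC17A5, the sialic acid exporter, fell by 0.96. Of 43 further mTORC1 genes 28 were tested, and 5 rose and 13 fell, or 64.3% called. None of the 3 shares called in either direction exceeded that of all genes. By direction, 24% of all genes rose and 46.4% fell, against 0% and 70% of the further autophagy genes. The shares were 15.9% and 40.9% for the further lysosomal genes and 17.9% and 46.4% for the further mTORC1 genes. DDIT4, an inhibitor of mTORC1, fell by 1.63, WDR59, a subunit of GATOR2, by 1.56, and RPS6KB1, the S6 kinase, by 1.28.

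OHT also raised RRAGD, TFEB and RHEB in hairpin cells, and ULK2 by its brightest probe set. Of the 44, 5 rose and 22 fell (61.4%), against 57.9% of all genes, of which 20.6% rose and 37.3% fell. RRAGD rose by 2.32 ± 0.09 (SE), TFEB by 1.55 ± 0.13 (SE), ULK2 by 1.10 ± 0.10 (SE), RHEB by 0.68 ± 0.09 (SE) and ATG13 by 0.45 ± 0.16 (SE) log2. NBR1 fell by 1.60 ± 0.11 (SE), WIPI1 by 1.20 ± 0.13 (SE), SQSTM1 by 1.14 ± 0.12 (SE) and RRAGA by 1.07 ± 0.09 (SE) log2. Called in the same direction in both kinds of cell were 25 members, which is 86.2% of the 29 called in scrambled cells and 92.6% of the 27 called in hairpin cells, against 77.9% and 94.7% over all genes, and 0 members were called in opposite directions. MITF fell by 0.38 ± 0.13 (SE) and GABARAPL1 by 0.48 ± 0.12 (SE) log2 in hairpin cells, where neither was called in scrambled cells. That difference between the 2 responses was not called for either gene. The ULK2 call was lost without probe sets ending in _x_at or _s_at (0.11, adjusted p = 0.672), and the GABARAPL1 call after centring (-0.24, adjusted p = 0.111). The ATG13 call was lost without the shFOXO707 array without OHT (adjusted p = 0.453) or shFOXO33 array 1 with OHT (adjusted p = 0.0524), and the MITF call without the shFOXO33 array without OHT (adjusted p = 0.154) or after centring (adjusted p = 0.377) or quantile normalization (adjusted p = 0.218). After centring on the array median the split in hairpin cells was 10 rises and 13 falls, and the share of all genes called was not counted.

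The difference between the responses, tested as an interaction, was called for 0 of 44 members with limma, against 0.35% of all genes. Differences ran from -0.40 ± 0.16 (SE) log2 for TFEB to 0.37 ± 0.67 (SE) for CTSL. Only TFEB and ULK2, at -0.35 ± 0.13 (SE), had an unadjusted limma p under 0.05. That is 2 of 44 members, against 813 of the 7720 genes tested. Without OHT the TFEB signal was 150 with shFOXO33 and 212 with shFOXO707, against 121 to 147 in scrambled cells. The ULK2 signals were 157 and 193, against 101 to 116. Each of these hairpin values is 1 array. The 95% interval for RRAGD was -0.44 to 0.08 log2, so a response in hairpin cells smaller by more than 0.44 lies outside it. In a fit with 6 title groups, where the spread between hairpins is left out of the error, 3 members were called. These were ATG3 at 0.26 (limma adjusted p = 0.0177), MAP1LC3B at -0.31 (limma adjusted p = 0.00752) and CTSL at 0.37 (limma adjusted p = 0.00963). The share of all genes called in that fit was not counted. Each hairpin had a single array without OHT in that fit, whose spread is assumed to be like that of the other groups. With shFOXO707 alone they were at 0.31, -0.55 and 0.54 and were called, and with shFOXO33 alone they were not. Either fit had 1 hairpin array without OHT. The ACTB ratio of 3' to 5' signal was 1.95 and 2.04 on the shFOXO707 arrays with OHT, the highest of all arrays. Its part in this result was not tested.

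**Figure D3:**
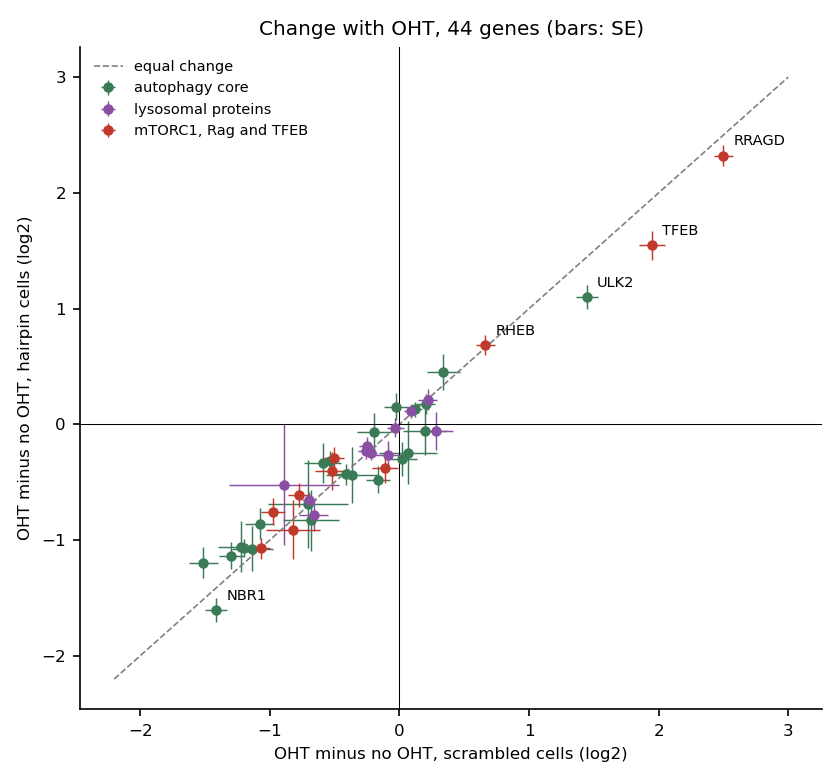
Change with OHT in scrambled cells (x axis) and in hairpin cells (y axis) in log2 for the 44 tested genes, coloured by class, with bars of 1 SE and a dashed line of equal change. The 4 labelled genes that rose lie near the line, with TFEB (1.95 and 1.55) and ULK2 (1.45 and 1.10) below it, and NBR1 lies at -1.41 and -1.60.

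With the hairpins MAP1LC3B, NBR1, CTSB and NPC2 were lower and ATG14 was higher. With OHT, 4 of the 44 were higher and 7 lower in hairpin than in scrambled cells, 25% against 22.7% of all genes, of which 14.7% were higher and 8.01% lower. The median log2 difference was -0.05 over the members and 0.04 over all genes. The autophagy core had 3 higher and 4 lower, the lysosomal proteins 0 and 3, and the mTORC1, Rag and TFEB genes 1 and 0. Leaving out scrambled array 3 or 4 without OHT, any scrambled array with OHT, either shFOXO33 array with OHT or shFOXO707 array 1 with OHT reduced the 4 higher members to 1 or 2, and leaving out scrambled array 2 or 4 with OHT reduced the 7 lower ones to 4. RRAGD and TFEB, which rose with OHT, had differences of -0.06 ± 0.08 (SE) and 0.00 ± 0.10 (SE) log2, with 95% intervals of -0.22 to 0.10 and -0.22 to 0.22.

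MAP1LC3B, which encodes the LC3 protein that marks autophagosomes, had the largest difference. Its signals with OHT were 2519, 2285, 2392 and 2296 in scrambled cells, 1596 and 1577 with shFOXO33 and 757 and 765 with shFOXO707. Each hairpin lay below all scrambled arrays, and shFOXO707 lay below shFOXO33. The mean was 2373 ± 109 in scrambled and 1174 ± 477 in hairpin cells (SD, n = 4 arrays each). The hairpin arrays are 2 of each hairpin, so their SD holds the gap between hairpins. The fall was 1.10 ± 0.22 (SE) log2, or 2.14-fold (limma adjusted p = 0.00353, with both hairpins taken as 1 group). Its other probe set was lower by 0.71 (limma adjusted p = 0.0375 among all probe sets). Without OHT the signals were 2182, 2228, 2311 and 2345 in scrambled cells and 1594 and 1071 with shFOXO33 and shFOXO707, a difference of -0.79 ± 0.27 (SE) log2 that did not overlap but was not called (limma adjusted p = 0.101).

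NBR1 was lower in hairpin cells with and without OHT. Its signals were 854 and 860 with shFOXO33 and shFOXO707 without OHT, 245 and 235 with shFOXO33 and OHT, and 303 and 309 with shFOXO707 and OHT. All lay below the scrambled arrays of the same treatment, by 0.76 ± 0.09 (SE) log2 with OHT (limma adjusted p = 6.74e-05) and by 0.57 ± 0.11 (SE) without (limma adjusted p = 0.00604). ATG14 was higher in both settings. Its signals were 680 and 662 with shFOXO33 and shFOXO707 without OHT, 321 and 330 with shFOXO33 and OHT, and 298 and 297 with shFOXO707 and OHT. These lay above the scrambled arrays of the same treatment, by 0.53 ± 0.07 (SE) log2 with OHT (limma adjusted p = 1.15e-04) and by 0.40 ± 0.08 (SE) without (limma adjusted p = 0.00818). MAP1LC3B, NBR1, ATG14, CTSB and NPC2 kept their call with OHT under all alternatives tried for them.

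ATG2A had signals with OHT of 172 and 143 with shFOXO33 and of 119 and 126 with shFOXO707. They overlapped the scrambled arrays, the highest of which was 124, and the difference of 0.56 ± 0.18 (SE) log2 was called (limma adjusted p = 0.0386) but lost in 13 of 26 alternatives. ATG5 at 0.20 ± 0.07 (SE) and MTOR at 0.26 ± 0.08 (SE) log2 were the other members called higher, lost in 13 and 10 of 26 alternatives. Single arrays ended these 3 calls. For ATG2A they were each scrambled array without OHT, scrambled arrays 1, 2 and 4 with OHT and both shFOXO33 arrays with OHT. For ATG5 they were scrambled arrays 3 and 4 without OHT, each scrambled array with OHT, shFOXO33 array 1 and shFOXO707 array 1 with OHT, and for MTOR scrambled arrays 1, 3 and 4, both shFOXO33 arrays and shFOXO707 array 1 with OHT. The adjusted p without 1 of these arrays ran from 0.0508 to 0.111 for the 3 genes.

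CTSB was lower by 0.38 ± 0.07 (SE) log2 with OHT (limma adjusted p = 0.00301), with 3049 and 3048 for shFOXO33 and 2672 and 2564 for shFOXO707 against 3653, 3614, 3731 and 3712. It had 3 other probe sets, which were lower by 0.55, 0.81 and 0.89. NPC2 was lower by 0.35 ± 0.05 (SE) log2 with OHT (limma adjusted p = 2.35e-04). It went from 7345 ± 258 to 5777 ± 143 (SD, n = 4 arrays each, those of hairpin cells being 2 of each hairpin). ATG7 was lower by 0.32 ± 0.10 (SE), GABARAPL1 by 0.35 ± 0.10 (SE) and LAMP2 by 0.19 ± 0.06 (SE) log2, calls lost in 8 of 25, 6 of 26 and 15 of 27 alternatives, and 1 other LAMP2 probe set was higher by 0.56. Arrays that ended these calls were scrambled 1, 2 or 4 with OHT and either shFOXO33 array for ATG7, scrambled 2 or 4 with OHT and shFOXO33 array 2 for GABARAPL1, and scrambled 1, 2 or 4 without or with OHT, either shFOXO33 array and shFOXO707 array 1 with OHT for LAMP2 (adjusted p = 0.0510 to 0.130).

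**Figure D4:**
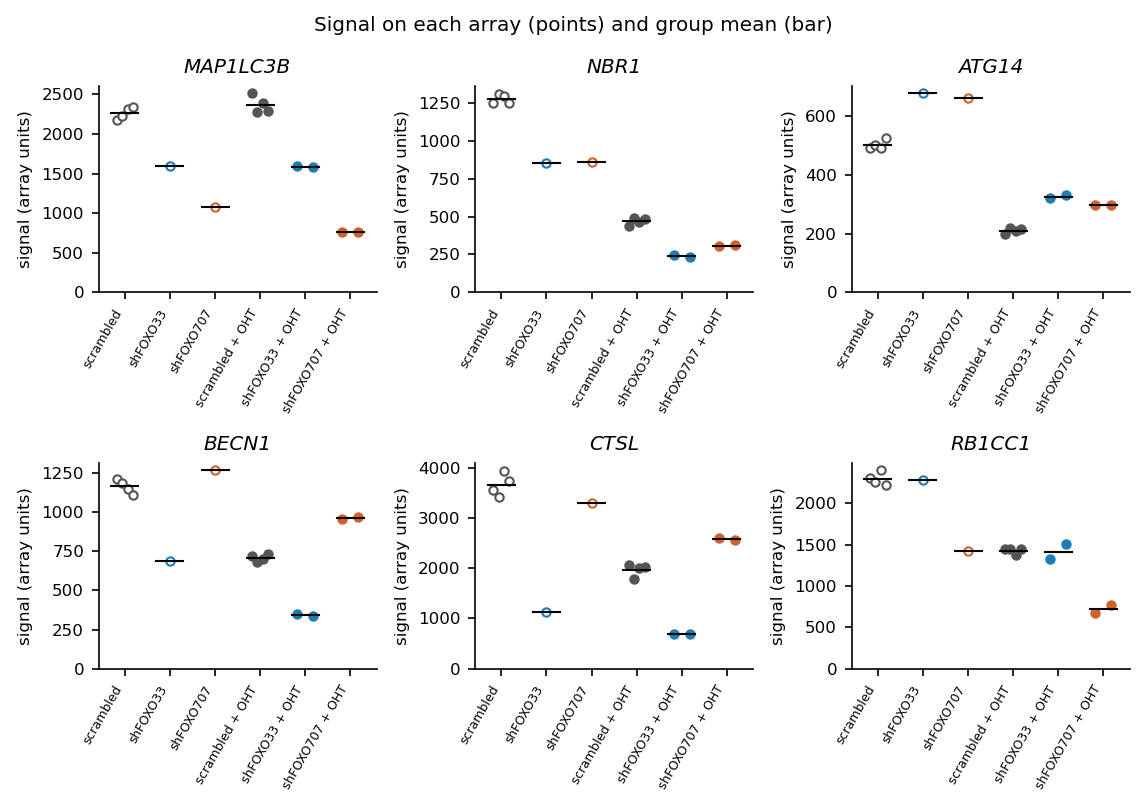
Signal in array units for 6 genes, one panel each, by title group (open points without OHT, filled points with OHT, bars the group mean, single arrays where a group has 1). NBR1 and ATG14 shift the same way with both hairpins, MAP1LC3B is lower with shFOXO707 (757 and 765 with OHT) than with shFOXO33 (1596 and 1577), and BECN1, CTSL and RB1CC1 differ between the hairpins.

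Without OHT, 2 members were higher and 4 lower in the 2 hairpin arrays than in the scrambled arrays, 13.6% against 7.81% of all genes, of which 4.84% were higher and 2.97% lower. ULK2 was higher by 0.59 ± 0.10 (SE) log2 (limma adjusted p = 0.00359), with signals of 157 and 193 against 101 to 116, and ATG14 was the other. The ULK2 call was lost with the mean of its probe sets (0.25, adjusted p = 0.254), and without probe sets ending in _x_at or _s_at the gene lay at -0.0933 (adjusted p = 0.856). NBR1, ATG7, CTSB and NPC2 were lower, ATG7 by 0.49 ± 0.12 (SE), CTSB by 0.37 ± 0.09 (SE) and NPC2 by 0.32 ± 0.06 (SE) log2. Of these 6 members 5 were also called with OHT in the same direction, which is 83.3% of the 6 and 45.5% of the 11 called with OHT, against 67.5% and 23.2% over all genes. The scrambled and hairpin arrays of these 2 comparisons are separate. Leaving out scrambled array 3 or the shFOXO707 array reduced the 4 lower members to 2. The ATG7 call was lost without scrambled array 2 or 3 or either hairpin array (adjusted p = 0.0506 to 0.0925), and the CTSB call without scrambled array 3 or 4 or the shFOXO707 array (adjusted p = 0.0565 to 0.207).

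The fuller lists showed changes in both directions with the hairpins and OHT. Of the 20 further autophagy genes 3 were higher and 2 lower, which is 25% called against 22.7% of all genes (14.7% higher, 8.01% lower), among them PIK3R4 (0.48) and ATG4A (0.40), a protease of the ATG4 family, above and ATG101, a partner of ATG13, below (-0.48, in log2). Of the 44 further lysosomal genes 11 were higher and 4 lower, or 34.1% called. FUCA1, a fucosidase, was lower by 0.77, with 472 and 518 for shFOXO33 and 525 and 573 for shFOXO707 against 844 to 943 in scrambled cells with OHT. SMPD1, acid sphingomyelinase, was higher by 0.69 and LIPA, acid lipase, by 0.62 on the log2 scale. Of the 28 further mTORC1 genes 6 were higher and 4 lower, or 35.7% called, with RPS6KA1 at -0.51, PRKAA1, a catalytic subunit of AMPK, at -0.43 and LAMTOR3, a subunit of the Ragulator scaffold, at 0.36.

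The hairpins differed from each other in 22 of the 44 members with OHT, 9 higher and 13 lower in shFOXO707 than in shFOXO33 cells, which is 50% against 43.5% of all genes, of which 22.1% were higher and 21.4% lower. This test used 2 arrays of each and a fit with 6 groups. The ACTB ratio of 3' to 5' signal was 1.95 and 2.04 on the shFOXO707 arrays with OHT and 1.60 and 1.63 on the shFOXO33 arrays with OHT. It was 1.598 to 1.7413 on the scrambled arrays with OHT, below both shFOXO707 arrays. Without OHT it was 1.64 with shFOXO707 and 1.49 with shFOXO33. The part of this ratio in the differences between hairpins, and in those of the hairpins from scrambled cells, was not tested. Of 6 bone markers 3 were higher and 1 was lower in shFOXO707 cells with OHT. Of 3 epithelial markers 2 were lower, of 3 mesenchymal markers 1 was lower, and of 2 neural markers 1 was higher.

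CTSL and BECN1 had the largest differences, and the hairpins lay on opposite sides of the scrambled cells. CTSL signals with OHT were 688 and 693 with shFOXO33 and 2610 and 2566 with shFOXO707, against 1788 to 2061 in scrambled cells. The hairpins differed by 1.88 ± 0.07 (SE) log2 (limma adjusted p = 1.73e-11), and against scrambled cells shFOXO33 was lower by 1.49 and shFOXO707 higher by 0.39. The single arrays without OHT held 1127 with shFOXO33 and 3300 with shFOXO707, against 3415 to 3943 in scrambled cells. BECN1 signals with OHT were 348 and 336 with shFOXO33 and 953 and 967 with shFOXO707, against 717, 679, 703 and 735 in scrambled cells. The hairpins differed by 1.45 ± 0.07 (SE) log2 (limma adjusted p = 1.58e-10), with shFOXO33 lower by 1.02 and shFOXO707 higher by 0.43. Without OHT BECN1 was at 688 and 1270, against 1108 to 1213. For both genes the pooled difference from scrambled cells, -0.55 for CTSL and -0.29 for BECN1, is an average of opposite signs.

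MAP1LC3B, RB1CC1 and TFE3 were lower with shFOXO707. MAP1LC3B was lower than in scrambled cells by 0.57 with shFOXO33 and by 1.62 with shFOXO707 in log2, and the hairpins differed by -1.04 ± 0.06 (SE) (limma adjusted p = 1.26e-09). RB1CC1 signals with OHT were 1326 and 1506 with shFOXO33 and 668 and 772 with shFOXO707, against 1442, 1443, 1372 and 1445 in scrambled cells. The shFOXO33 arrays surrounded the scrambled ones, at -0.01, while shFOXO707 lay at -0.97 (limma adjusted p = 1.55e-08). With the hairpins pooled, this RB1CC1 probe set differed from scrambled cells by -0.49 and the gene's other probe set by -0.27, and neither was called. The other probe set was not fitted for each hairpin. TFE3 lay at -0.11 with shFOXO33 and at -1.04 with shFOXO707, and its shFOXO707 signals were 382 and 559. ULK1, ATG12, OPTN and ATG3 were also lower with shFOXO707 than with shFOXO33, by 0.82, 0.61, 0.60 and 0.52 on the log2 scale. ULK1 was higher than in scrambled cells with shFOXO33 (0.67, limma adjusted p = 8.77e-04), and OPTN lay at 0.29 with shFOXO33 and at -0.31 with shFOXO707, both called. Another OPTN probe set differed by -0.07 between the hairpins and was not called (limma adjusted p = 0.634).

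Against scrambled cells with OHT, shFOXO33 gave 10 higher and 14 lower members (54.5%, against 49.4% of all genes, with 27.8% higher and 21.5% lower) and shFOXO707 gave 5 higher and 11 lower (36.4%, against 41.8%, with 24.6% higher and 17.2% lower). The 2 comparisons share the scrambled arrays. NPC2 lay at -0.35 and -0.34, ATG14 at 0.60 and 0.47, NBR1 at -0.92 and -0.59 and CTSB at -0.27 and -0.49 for shFOXO33 and shFOXO707 in log2, all called. RHEB lay at -0.02 and 0.00, RRAGD at 0.01 and -0.12, TFEB at -0.07 and 0.06, CTSA at 0.10 and 0.07 and HEXA at -0.05 and -0.04, and these were not called with either hairpin.

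**Figure D5:**
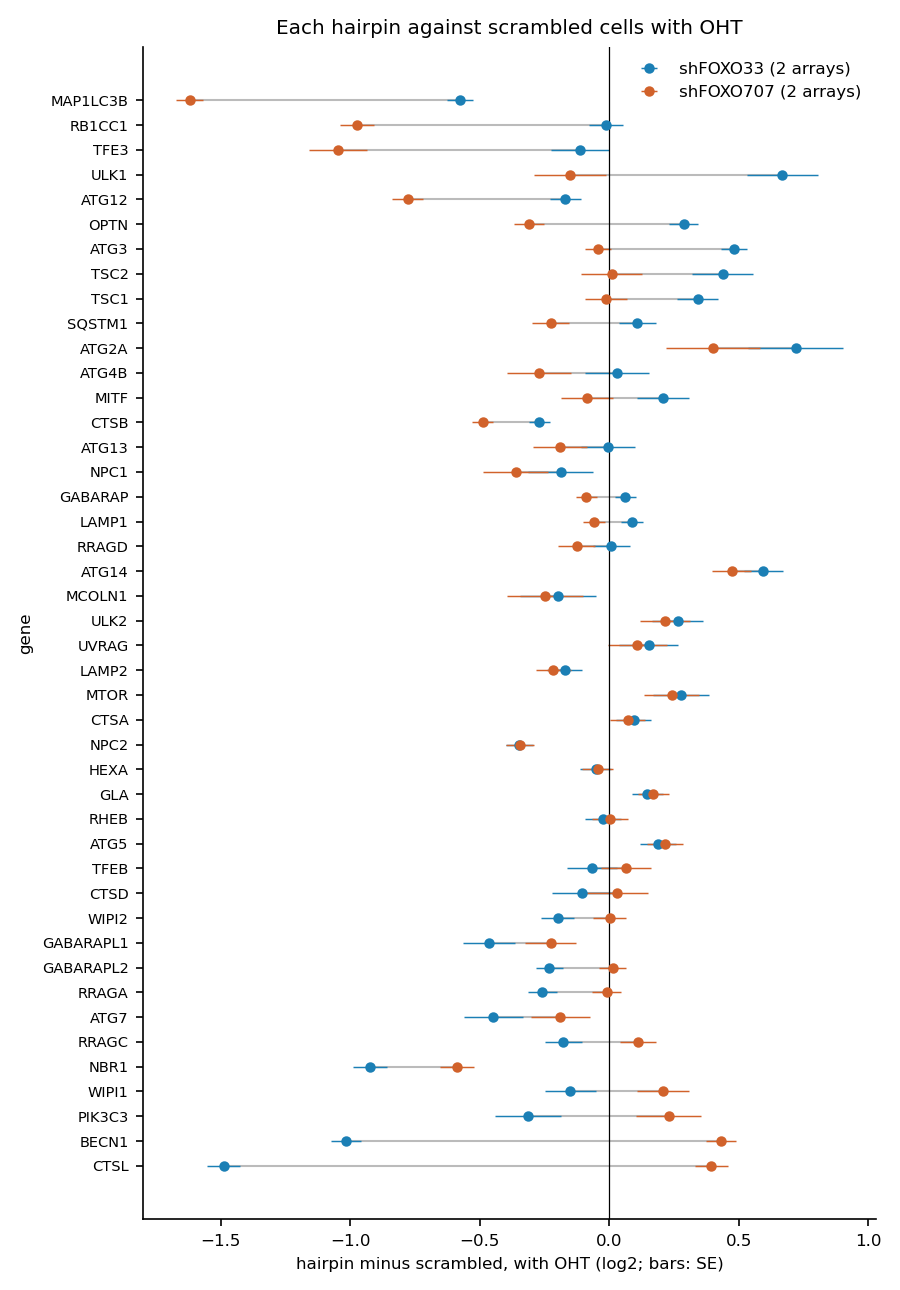
Difference from scrambled cells with OHT in log2 (x axis) for each of the 44 tested genes (y axis) with shFOXO33 and with shFOXO707, points with bars of 1 SE from the fit with 6 groups and a grey line joining the hairpins. CTSL (-1.49 and 0.39) and BECN1 (-1.02 and 0.43) lie on opposite sides of 0, MAP1LC3B (-0.57 and -1.62) on one side at different sizes, and NPC2 (-0.35 and -0.34) at the same place.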

How the data were processed

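RNA of 14 samples was measured on Affymetrix arrays. The authors deposited 1 linear intensity per probe set and array, and the submitters' processing notes name MAS5. A mean trimmed by 2% at each end was 500 on every array, so the deposited intensities share a scale. Precision is limited by how few arrays there are. The deposited table held no detection call that was used here.

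Probe sets naming 1 gene were kept, 19064 of 22277, with symbols updated through a RefSeq gene table. Deposited signals were transformed to log2(signal + 16), so folds are on that scale and understate dim genes. Genes were kept when the mean log2 value of their brightest probe set lay above the 40th percentile (6.57, a signal of 79.1), leaving 7720. Differences were tested with limma 3.58.1 in R 4.3.3 (lmFit, eBayes with trend), two-sided, over 14 arrays in 4 groups with the hairpins pooled, and in 6 title groups for differences between hairpins. Calls required a p under 0.05 after Benjamini-Hochberg adjustment. The spread between hairpins counts only in part, so hairpin calls can be too many. The fit was tested on simulated data for the comparison of OHT in scrambled cells alone. No difference between hairpins was simulated, so the other comparisons were not tested this way.

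Members and lists were chosen with earlier results of these data known. Values per array are printed for members called at 1 or more log2 with OHT in scrambled cells or 0.5 or more with the hairpins and OHT, and for FOXO1 and FOXO3. BECN1, CTSB, CTSL, FUCA1, RB1CC1 and TFE3 were added after their values were seen. Of each further list the 3 called members with the largest changes are named, and RUNX2 is given as a marker. Alternatives were the pseudocount, filter, scaling, choice of probe set, variance prior, grouping, replicate block and leaving out each array.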

Additional observations from a re-analysis of the deposited data

Results flagged for a closer look

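Over 90 groups of 4 array values, 7 held an array far from the others, where chance gives about 1 in 20 groups. ULK2 was at 100.6533 on scrambled array 4 without OHT, against 113 to 116 on the others. HEXA was at 1623.5917 on the same array, against 1402 to 1431. RHEB was at 3844.196 on scrambled array 1 without OHT, against 4660 to 4697. With OHT, scrambled array 3 held RB1CC1 at 1371.5104, against 1442 to 1445, and RRAGC at 824.9881, against 989 to 990.2. Scrambled array 2 with OHT held GABARAPL2 at 3188.4954, against 3386 to 3419, and MTOR at 150.3731, against 131 to 133.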

How the results depend on the processing

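Limits first: 1 array of each hairpin without OHT, signals without detection calls, and probe sets that can read related transcripts bound what these counts show. The cause of each change below was not tested, beyond what a setting removes by construction. The share of all genes called under each alternative was not counted. A change in the members therefore cannot be told from a change in all genes. Members called with OHT in scrambled cells (7 higher, 22 lower) became 12 higher after centring arrays on their median, 11 higher with 6 title groups, and 3 higher and 12 lower without probe sets ending in _x_at or _s_at, where 22 members were tested. Those called with OHT in hairpin cells (5 and 22) became 10 and 13 after centring, 2 and 11 without such probe sets, 9 higher with 6 groups and 8 higher with shFOXO707 alone. Those called with the hairpins and OHT (4 and 7) became 2 higher after centring, 2 higher after quantile normalization, 1 higher with no filter, 2 lower without such probe sets, 8 and 14 with 6 groups, 10 and 13 with shFOXO33 alone and 11 lower with shFOXO707 alone. Those called with the hairpins without OHT (2 and 4) became 1 higher with the filter at the 60th percentile, 1 higher with the mean of a gene's probe sets, 1 and 1 without such probe sets, 4 and 14 with 6 groups, 6 and 10 with shFOXO33 alone and 12 lower with shFOXO707 alone. The interaction (0 and 0) became 2 and 1 with 6 groups and with shFOXO707 alone. The hairpin difference (9 and 13) became 2 and 7 without such probe sets. Leaving out each array in turn gave 5 to 8 higher and 22 to 23 lower with OHT in scrambled cells, 4 to 7 and 17 to 23 with OHT in hairpin cells, 1 to 5 and 4 to 8 with the hairpins and OHT, 2 to 3 and 2 to 5 without OHT, 0 and 0 in the interaction and 6 to 9 and 10 to 13 between the hairpins. Same-numbered scrambled arrays had deviations with correlations from -0.0146 to 0.0462 over 4 pairs, which does not tell if they shared a culture or batch. With 2 arrays of each hairpin the correlation can only be 0.0469 or -0.0469, so it tests no pairing. Apart from the replicate block, the numbers were used only to name arrays. With that block the hairpin calls with OHT became 2 higher and 4 lower. Signs reversed for CTSA (0.21) and NPC2 (0.0204) with OHT in scrambled cells and HEXA (0.0127) in hairpin cells after centring, for LAMP2 with OHT in scrambled cells (0.0019 with the mean of probe sets, 0.0658 without such probe sets) and with the hairpins and OHT (0.0839 with the mean), and without such probe sets for ULK2 with OHT in scrambled cells (-0.20) and with the hairpins without OHT (-0.0933). With 1 hairpin alone they reversed for BECN1 (0.43) and CTSL (0.39) with shFOXO707 and for OPTN (0.29) with shFOXO33, all with OHT, and for ATG3 (0.27) with shFOXO33 without OHT.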
